A study of Mus musculus with 8 samples.

Results

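Paired receptors are families of myeloid surface proteins in which inhibitory and activating members share a closely related outer part. The members examined here were Sirpa, Sirpb1a and their family's ligand gene Cd47, the pair Pilra and Pilrb1, and Cd300a, Cd300ld and Cd300lf of the CD300 family. They were chosen by gene symbol: every probe set that the platform annotation gives to 1 of these 8 genes was used. This found 15 of the 45037 probe sets that are not array controls, for 8 of 18193 named genes. Sirpa had 3 probe sets, Cd47 had 5, Cd300a had 2, and the other 5 genes had 1 each. A further probe set, 1448025_at, is annotated to Sirpb1a, Sirpb1b and Sirpb1c together, and is described beside the members without being counted as one.

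The series profiled conventional dendritic cells sorted from the spleens of untreated female C57BL/6 mice, aged 10 weeks per the sample labels and 8 to 10 weeks per the series' design text. Mice were wild type (WT) or RAG2-/-, which lack the recombinase needed to assemble antigen receptors and so have no mature T or B cells. The sort separated CD8α+ from CD8α- cells, giving 4 groups of 2 Affymetrix arrays: WT CD8α-, WT CD8α+, RAG2-/- CD8α- and RAG2-/- CD8α+. The comparisons ask how the receptors differ between the subsets in each genotype, and how they differ between the genotypes in each subset. Nothing in the labels says that the 2 arrays of a group came from separate mice, so p-values may measure technical spread alone.

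SIRPα carries inhibitory motifs (ITIMs) in its tail that recruit the phosphatase SHP-1, and binding of CD47, displayed on most cells, restrains phagocytosis through it. SIRPβ1 has a short tail and signals through the adaptor DAP12, whose activating motif (ITAM) recruits the kinase Syk. PILRα and PILRβ are built the same way, one inhibitory and one coupled to DAP12, and both bind sialylated proteins. CD300 receptors bind lipids such as phosphatidylserine exposed on dying cells, and divide likewise into inhibitory members, among them CD300a and CD300LF, and activating ones such as CD300LD. In the spleen SIRPα is a standard surface marker of the CD8α- subset.

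Values are deposited log2 expression values, 1 per probe set and array, and each is given for replicate 1 and then replicate 2. A probe set was tested if it reached 5 on at least 2 of the 8 arrays, which 14 of the 15 member probe sets did. It was called at an adjusted p under 0.05, from limma with Benjamini-Hochberg adjustment over the 16939 probe sets tested. SE is the standard error of a log2 difference. Where the lower group was under 5 on both arrays, the fold is given as at least so much, measured against a level of 5. Levels of different probe sets depend on their probes and are not set against each other.

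**Figure D1:**
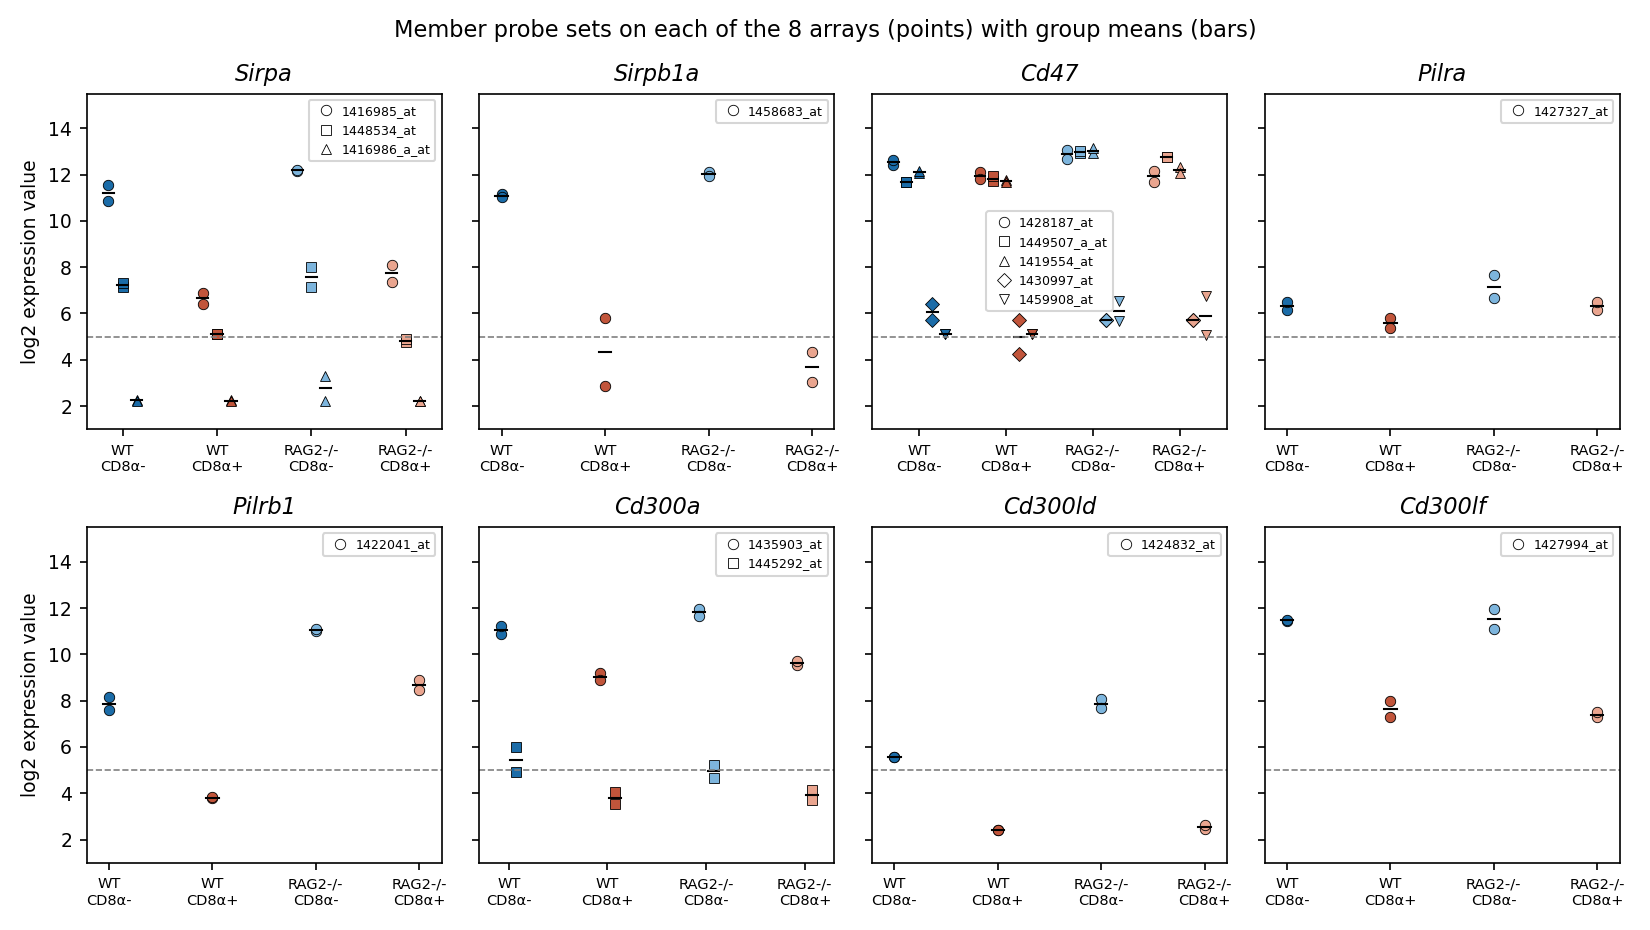
Log2 expression values (vertical axis) of the 15 member probe sets in the 4 groups, 1 panel per gene, with a point for each array, a marker shape for each probe set, a bar at each group mean and a dashed line at 5. Sirpa 1416985_at, Sirpb1a, Pilrb1, Cd300a 1435903_at, Cd300ld and Cd300lf are lower on both CD8α+ arrays than on both CD8α- arrays of the same genotype, while the brightest Cd47 probe sets stay between 11.66 and 13.14 on every array.

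The sort and the purity of the samples were checked on transcripts that bear on these receptors. Cd8a was at 5.80 to 7.70 in CD8α- cells and at 11.73 to 12.51 in CD8α+ cells, and all 9 conventional dendritic cell markers were at 5 or more on every array. The probe set for Itgam, which encodes CD11b, was under 5 on each array, and so were Rag1 and Rag2, which therefore say nothing of the genotype. Neutrophil transcripts, summed on the linear scale over the 10 of 12 markers on the array, were at 67.2 to 91.9 on the WT arrays. In the RAG2-/- groups they were at 79.6 and 8386 in CD8α- cells and at 3114 and 109 in CD8α+ cells, so 1 array of each group stood apart. Summed red pulp macrophage markers were at 4717 to 7481 on the WT arrays and at 10276 to 24574 on the RAG2-/- arrays. Of the 11 macrophage markers, 5 were at 5 or more on both arrays of each WT group, against 10 in RAG2-/- CD8α- and 9 in RAG2-/- CD8α+ cells. Summed NK cell markers were at 224 to 272 in WT and 768 to 3969 in RAG2-/-, and summed B cell markers at 9905 to 15122 and 4564 to 5816. Ighm made up most of the B cell sum, at 12.96 to 13.42 in WT and 12.06 to 12.40 in RAG2-/-. In CD8α- cells the WT and RAG2-/- means were 10.27 and 2.77 for Jchain, 10.46 and 5.86 for Ms4a1 and 8.93 and 7.88 for Cd79b. In CD8α+ cells they were 9.76 and 5.50, 10.60 and 7.37, and 6.72 and 4.57. The RAG2-/- arrays also share a lowest value of 2.23, whereas the lowest WT values are 1.16 and 1.17, and array medians were 2.97 to 3.06 in WT and 2.33 to 2.38 in RAG2-/-. Genotype and processing therefore cannot be told apart.

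**Figure D2:**
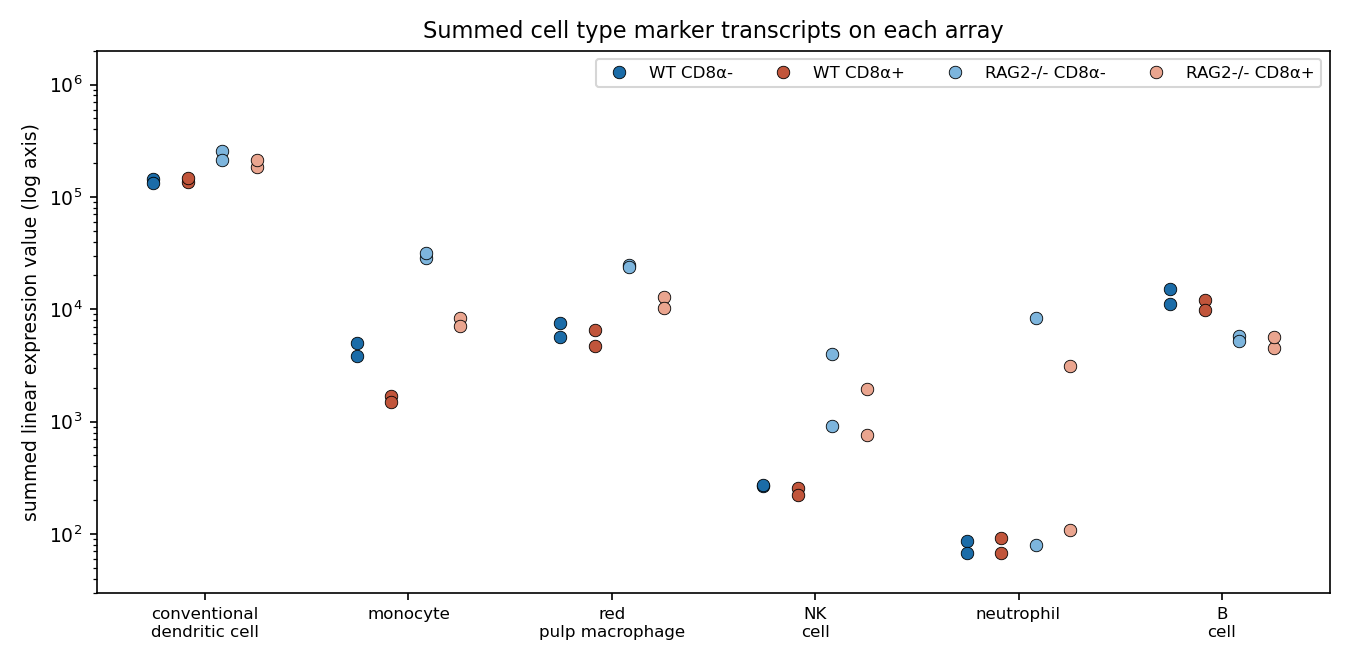
Summed linear expression values (log vertical axis) of 6 lists of cell type markers, with a point for each array, coloured by group. The neutrophil list is high on 1 array of each RAG2-/- group, at 8386 and 3114, and the monocyte, macrophage and NK cell lists are higher on every RAG2-/- array than on the WT arrays of the same subset.

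Between the subsets, most of the receptors were lower in CD8α+ cells. In WT, 8 of the 14 tested member probe sets fell and 0 rose, from 6 genes. Of these, Cd300ld and Cd300a 1445292_at reached 5 on CD8α- arrays alone, so they passed the filter through the higher subset. Their part in the counts and medians is therefore no independent support for the direction. Over all probe sets tested 12.7% were called, 6.98% higher and 5.74% lower. The median log2 difference was -1.84 over the tested members and 0.02 over all probe sets tested. In RAG2-/- mice 8 of 14 fell and 0 rose, from 7 genes, against 16.2% of all probe sets called, 7.69% higher and 8.47% lower, with medians of -1.62 and -0.01. In bulk RNA, fewer cells of a type and less RNA per cell cannot be told apart. Summed monocyte markers also differed between the subsets, at 3834 to 5056 in CD8α- and 1504 to 1690 in CD8α+ cells of WT mice, and at 28848 to 31924 and 7067 to 8406 in RAG2-/- mice. Csf1r made up most of that sum, with means of 11.98 in WT CD8α- and 10.03 in WT CD8α+ cells. Ccr2 was the other way round in WT (8.04 and 8.81) and Cx3cr1 nearly level (6.37 and 6.17), whereas in RAG2-/- mice the mean of each of the 3 was lower in CD8α+ cells. Fn1, F13a1 and Vcan, the other 3 of the 6 monocyte markers on the array, were under 5 on all 8 arrays. Their part in the receptor differences was not tested.

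**Figure D3:**
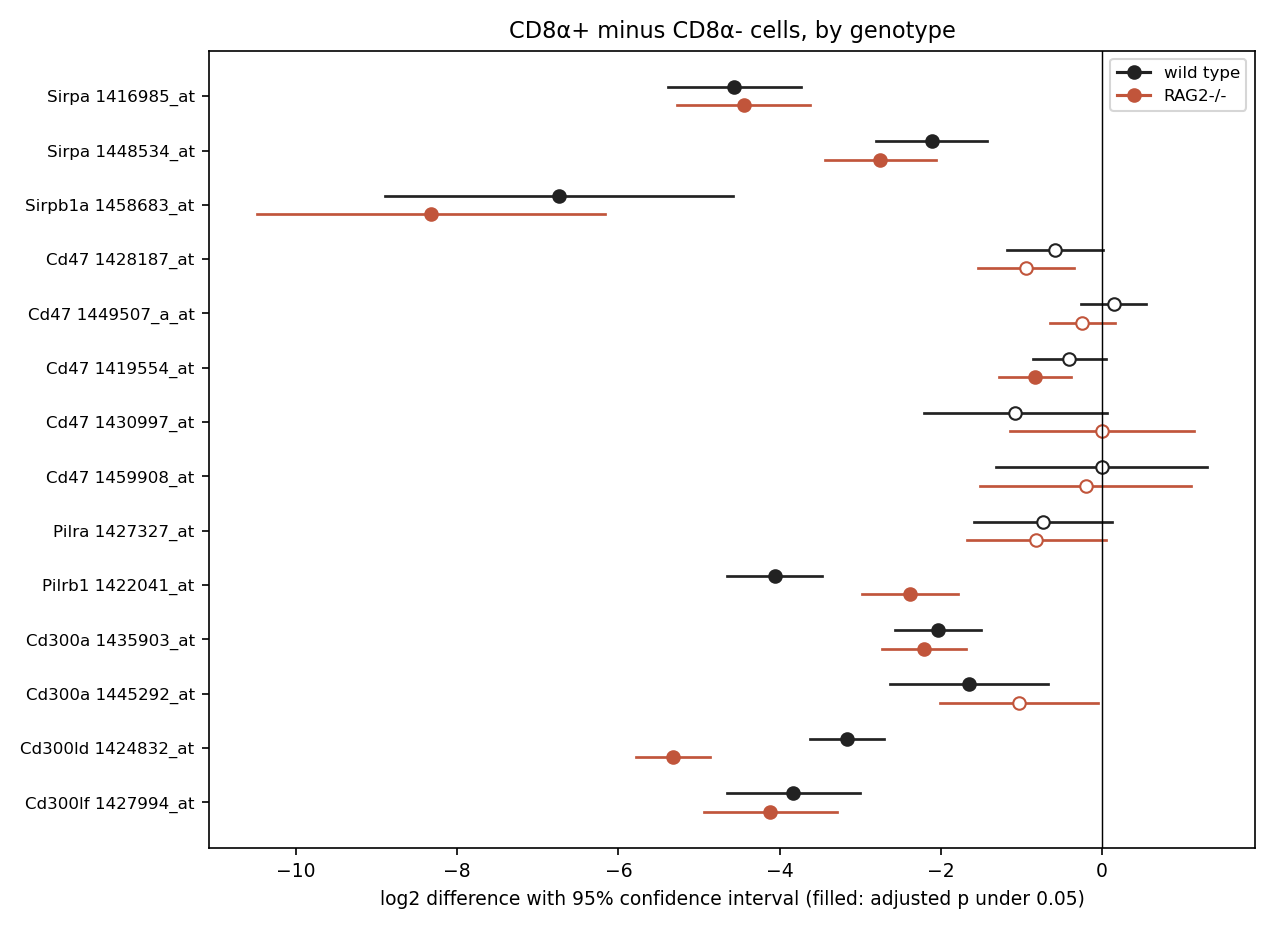
Log2 difference of CD8α+ minus CD8α- cells (horizontal axis, bars: 95% confidence interval) for the 14 tested member probe sets in WT (black) and RAG2-/- mice (orange), with filled points for an adjusted p under 0.05. Sirpb1a lies farthest to the left, at -6.74 and -8.33, while the Cd47 and Pilra probe sets lie between -1.08 and 0.15.

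Sirpa, the inhibitory receptor for CD47, was the most familiar of these. Its brightest probe set, 1416985_at, read 11.57 and 10.86 in WT CD8α- cells and 6.42 and 6.89 in WT CD8α+ cells. In RAG2-/- mice it read 12.15 and 12.20 in CD8α- and 8.10 and 7.37 in CD8α+ cells. The subsets did not overlap in either genotype, and CD8α- cells were high in both. The difference was 23.6-fold in WT (log2 -4.56, SE 0.34, adjusted p = 0.000628) and 21.7-fold in RAG2-/- (-4.44, SE 0.34, adjusted p = 0.000622).

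The second Sirpa probe set, 1448534_at, gave the same direction at a smaller size. It read 7.14 and 7.31 in WT CD8α- cells, 5.12 and 5.10 in WT CD8α+ cells, 7.16 and 8.00 in RAG2-/- CD8α- cells and 4.75 and 4.91 in RAG2-/- CD8α+ cells. It was 4.33-fold lower in WT CD8α+ cells (log2 -2.11, adjusted p = 0.00483). In RAG2-/- CD8α+ cells it was at least 5.96-fold lower (-2.75, adjusted p = 0.00167), and the call was lost in a fit of those 2 groups alone (adjusted p = 0.0528). The third, 1416986_a_at, did not pass the filter: it read 2.23 to 2.25 on 7 arrays and 3.30 on the RAG2-/- CD8α- array with neutrophil transcripts. Those readings lie at the floor of the RAG2-/- arrays, so this probe set bears on none of the comparisons.

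Sirpb1a, the activating DAP12-coupled counterpart, showed the widest gap between the subsets among the members. Probe set 1458683_at read 11.18 and 11.01 in WT CD8α- cells against 5.82 and 2.87 in WT CD8α+ cells. In RAG2-/- mice it read 12.09 and 11.93 against 4.35 and 3.02. All 4 CD8α- arrays were high, and the CD8α+ arrays were low but far apart, with an SD of 2.09 in WT. The log2 difference was -6.74 in WT (SE 0.90, adjusted p = 0.00468) and -8.33 in RAG2-/- (SE 0.90, adjusted p = 0.00193), the latter at least 129-fold. Its size in WT rests on the CD8α+ array kept: it was -8.22 without replicate 1 and -5.27 without replicate 2. Without WT CD8α- replicate 1 it was -6.66 and missed the threshold, at an adjusted p of 0.0512, as it did with no filter on low values (adjusted p = 0.0596).

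The probe set shared by Sirpb1a, Sirpb1b and Sirpb1c moved the same way. 1448025_at read 13.26 and 13.04 in WT CD8α- cells, 8.59 and 7.94 in WT CD8α+ cells, 14.36 and 13.80 in RAG2-/- CD8α- cells and 8.67 and 7.27 in RAG2-/- CD8α+ cells. It was 29.6-fold lower in WT CD8α+ cells (log2 -4.89, adjusted p = 0.00149) and 69.2-fold lower in RAG2-/- CD8α+ cells (-6.11, adjusted p = 0.000642). Which of the 3 genes it reports cannot be told from it. The region before the Sirpb1a start is itself close to those of its copies in RefSeq (GRCm38.p6), with 95.5% of 157 aligned bases identical in Sirpb1b and 94.9% of 198 in Sirpb1c.

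Cd47, the ligand, was bright in every group and differed little between the subsets. Of its 5 probe sets, 3 were above 11 on all 8 arrays. 1428187_at read 12.42 and 12.64 in WT CD8α-, 12.09 and 11.81 in WT CD8α+, 13.08 and 12.66 in RAG2-/- CD8α- and 11.69 and 12.16 in RAG2-/- CD8α+ cells. Its difference was -0.58 in WT (95% interval -1.18 to 0.02) and -0.94 in RAG2-/- (-1.54 to -0.34, adjusted p = 0.0504), neither called.

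1419554_at read 12.08 and 12.17, then 11.78 and 11.66, in WT CD8α- and CD8α+ cells, and 12.92 and 13.14, then 12.34 and 12.05, in the same subsets of RAG2-/- mice. It fell by 0.83 on the log2 scale in RAG2-/- CD8α+ cells (SE 0.19, adjusted p = 0.0291). That call was lost whichever of the 8 arrays was left out, at adjusted p from 0.0507 to 0.106. In WT its difference was -0.40 (interval -0.85 to 0.05). The third bright probe set, 1449507_a_at, differed by 0.15 in WT (-0.26 to 0.55) and -0.24 in RAG2-/- (-0.64 to 0.17). The Cd47 probe sets thus disagree in sign in WT, and the largest fall any of these intervals allows among the 3 bright ones is 1.54 on the log2 scale.

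The 2 dim Cd47 probe sets carried little information. 1430997_at read 5.70 on all 4 RAG2-/- arrays and 5.71, 6.39, 5.72 and 4.23 on the WT arrays, and 1459908_at read 5.10 or 5.11 on all 4 WT arrays. In RAG2-/- mice 1459908_at was spread from 5.06 to 6.76 without separating the subsets. Both thus repeated 1 value across several arrays, and neither was called in any of the 5 comparisons.

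Pilra, the inhibitory member of its pair, was dim and did not pass the test between subsets. Probe set 1427327_at read 6.15 and 6.48 in WT CD8α- and 5.79 and 5.38 in WT CD8α+ cells, and 6.65 and 7.65 against 6.16 and 6.51 in RAG2-/- mice. The arrays of the 2 subsets did not overlap in either genotype, and the CD8α- arrays were the higher ones. The differences were -0.73 in WT (95% interval -1.59 to 0.13) and -0.81 in RAG2-/- (-1.67 to 0.05).

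Pilrb1, its activating DAP12-coupled partner, fell in CD8α+ cells of both genotypes. Probe set 1422041_at read 7.61 and 8.14 in WT CD8α- cells, 3.80 and 3.83 in WT CD8α+ cells, 10.99 and 11.09 in RAG2-/- CD8α- cells and 8.89 and 8.44 in RAG2-/- CD8α+ cells. No 2 groups overlapped, and the 2 WT CD8α+ arrays were the only ones under 5. It was at least 7.33-fold lower in WT CD8α+ cells (log2 -4.06, SE 0.25, adjusted p = 0.000301) and 5.20-fold lower in RAG2-/- CD8α+ cells (-2.38, SE 0.25, adjusted p = 0.00167).

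Pilra and Pilrb1 are neighbours on chromosome 5, with 0 annotated genes between them, and the sequences ahead of their starts are near copies. They are shown because Pilrb1 was called between subsets and between genotypes and Pilra in neither. The 2 genes were not tested against each other, nor was any part of this stretch in their levels. The 2 probe sets still moved in the same direction, with r = 0.864 over the 8 arrays. Over 196 aligned bases without a gap, 192 are identical (98%). Only the 250 bases before each start were aligned, and the stretch begins at that limit in Pilrb1. In Pilra (chr5:137836279-137836474) the stretch runs up to the annotated start, and in Pilrb1 (chr5:137858104-137858299) it ends 55 bases before it. Both are on the minus strand of GRCm38.p6 in RefSeq and are printed 5′ to 3′ along the gene, with capitals for the bases that differ.
Pilra: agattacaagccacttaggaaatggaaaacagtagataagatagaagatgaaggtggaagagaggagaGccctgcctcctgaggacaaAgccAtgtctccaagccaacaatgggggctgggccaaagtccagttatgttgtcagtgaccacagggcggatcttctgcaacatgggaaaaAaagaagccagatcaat
Pilrb1: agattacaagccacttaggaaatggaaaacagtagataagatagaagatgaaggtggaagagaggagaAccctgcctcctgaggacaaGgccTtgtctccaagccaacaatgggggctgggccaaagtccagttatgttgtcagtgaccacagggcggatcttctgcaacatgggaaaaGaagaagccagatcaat

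The related gene Pilrb2 has an upstream stretch that is 99.5% identical to that of Pilra over the same length. The probes' own sequences were not used here, so whether the Pilrb1 probe set also reads Pilrb2 was not tested.

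Cd300a, an inhibitory receptor for phospholipids, was bright in both subsets and lower in CD8α+ cells. Probe set 1435903_at read 10.89 and 11.22 in WT CD8α-, 9.18 and 8.88 in WT CD8α+, 11.98 and 11.67 in RAG2-/- CD8α- and 9.52 and 9.72 in RAG2-/- CD8α+ cells. Every CD8α- array was above every CD8α+ array. The difference was 4.07-fold in WT (log2 -2.03, SE 0.22, adjusted p = 0.00215) and 4.61-fold in RAG2-/- (-2.20, SE 0.22, adjusted p = 0.00146).

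The dimmer Cd300a probe set, 1445292_at, pointed the same way near the filter. It read 4.91 and 5.98, then 4.06 and 3.54, in WT CD8α- and CD8α+ cells, and 4.68 and 5.21, then 4.13 and 3.69, in RAG2-/- mice. Its WT call, at least 1.36-fold (log2 -1.65, adjusted p = 0.0457), was lost when any 1 array other than WT CD8α- replicate 1 was left out, at adjusted p from 0.0617 to 0.232. It was also lost with values under 5 set to 5, where the difference was -0.49. Of the 16 alternatives in which this probe set had a value, 3 called it. In RAG2-/- mice the difference was -1.03 and was not called.

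Cd300lf, an inhibitory receptor that recognises ceramide and phosphatidylserine, fell steeply in CD8α+ cells. Probe set 1427994_at read 11.45 and 11.49 in WT CD8α-, 7.98 and 7.30 in WT CD8α+, 11.95 and 11.08 in RAG2-/- CD8α- and 7.29 and 7.51 in RAG2-/- CD8α+ cells. CD8α- arrays of both genotypes were high and overlapped each other, and the CD8α+ arrays were low and overlapped each other. It was 14.2-fold lower in WT CD8α+ cells (log2 -3.83, SE 0.35, adjusted p = 0.00113) and 17.3-fold lower in RAG2-/- CD8α+ cells (-4.12, SE 0.35, adjusted p = 0.000804).

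Cd300ld, the activating member of this family examined here, reached 5 only in CD8α- cells. Probe set 1424832_at read 5.58 and 5.56 in WT CD8α- cells and 8.06 and 7.68 in RAG2-/- CD8α- cells, against 2.42 and 2.40 in WT CD8α+ and 2.47 and 2.63 in RAG2-/- CD8α+ cells. The 4 CD8α+ arrays lie near the floor, so the fold is a lower bound. It was at least 1.48-fold lower in WT CD8α+ cells (log2 -3.16, SE 0.19, adjusted p = 0.000303) and at least 7.30-fold lower in RAG2-/- CD8α+ cells (-5.32, SE 0.19, adjusted p = 5.2e-05). With values under 5 set to 5, the WT difference was -0.57 and was not called (adjusted p = 0.0819).

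The 3 CD300 members lie in 1 cluster on chromosome 11, where 11 annotated genes, 10 of them protein coding, stand between Cd300a and Cd300lf. Because they fell together in CD8α+ cells, the sequence before their starts was searched, over 250 bases and both strands, for the core of the binding motif of PU.1, a myeloid transcription factor (GAGGAA). It occurred in 23.3% of 32851 RefSeq promoters and in 4 of the 7 member genes with an entry, namely Pilra, Cd300a, Cd300ld and Cd300lf. Pilra was not called between subsets, while Sirpb1a and Pilrb1 fell in CD8α+ cells and had no match within the 250 bases. The Pilra match lies 211 to 206 bases before the start. Base 196 of Pilra aligns with base 250 of Pilrb1, so the Pilrb1 bases facing that match were not searched. In Cd300a it lies 39 to 34 bases and in Cd300lf 43 to 38 bases before the start, on the opposite strand in both. How often a match lies this near the start in other promoters was not counted. The last 120 bases before the start of Cd300a and Cd300lf are given with the match in capitals, to show where it lies. They are chr11:114889921-114890040 on the plus strand and chr11:115133993-115134112 on the minus strand (GRCm38.p6).
Cd300a: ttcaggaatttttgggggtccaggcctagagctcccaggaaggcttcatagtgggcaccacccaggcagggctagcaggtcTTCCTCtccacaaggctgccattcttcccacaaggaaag
Cd300lf: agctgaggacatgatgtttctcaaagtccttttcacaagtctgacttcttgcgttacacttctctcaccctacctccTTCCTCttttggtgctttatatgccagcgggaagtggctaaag

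The match in Cd300ld lies farther out, 143 to 138 bases before the start. A composite of an ETS and an IRF element (GGAANNGAA) occurred in 6.99% of the promoters and in 2 of 7 members, Pilra and Pilrb1. The 2 matches are not at corresponding places. In Pilra it lies 209 to 201 bases before the start, overlapping the PU.1 core match and outside the stretch aligned with Pilrb1. That stretch begins at the limit of the 250 bases taken from Pilrb1. Whether Pilrb1 shares this match farther out was therefore not examined. In Pilrb1 it lies 77 to 69 bases before the start, inside that stretch, and includes a base that differs in Pilra. A match is a string of letters, and binding was not measured here.

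Between the genotypes, the members that were called were all higher in RAG2-/- mice. In CD8α- cells 5 of 14 tested probe sets rose and 0 fell: Pilrb1, Cd300ld, Cd300a 1435903_at, and Cd47 1449507_a_at and 1419554_at. This stands against 35.7% of all probe sets called, 19.1% higher and 16.6% lower, so the share of members called equals the background share, with all of the members' calls on the higher side. In CD8α+ cells 2 of 14 rose and 0 fell, Pilrb1 and Cd47 1449507_a_at, against 33.9% of all called, 16.7% higher and 17.3% lower. The median difference was 0.87 over the tested members and 0.08 over all probe sets in CD8α- cells, and 0.54 and -0.02 in CD8α+ cells.

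These counts depend on how the arrays are scaled. With each array centred on its median, the median of all probe sets moved to 0.77 in CD8α- and 0.68 in CD8α+ cells, and the members called rose to 10 and 8 of 14, while the share of all probe sets called rose to 53.1% and 49.9%. The share of all calls that were higher in RAG2-/- went from 53.4% to 89.1% in CD8α- and from 49.2% to 88.5% in CD8α+ cells. Leaving out either WT CD8α- array reduced the CD8α- count from 5 to 3. The macrophage, NK cell and monocyte sums given above were higher on every RAG2-/- array than on the WT arrays of the same subset. Neutrophil transcripts stood apart on 1 array of each RAG2-/- group alone. The part of any of these in the receptor differences was not tested. Without both arrays that hold neutrophil transcripts the counts were 5 and 3.

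**Figure D4:**
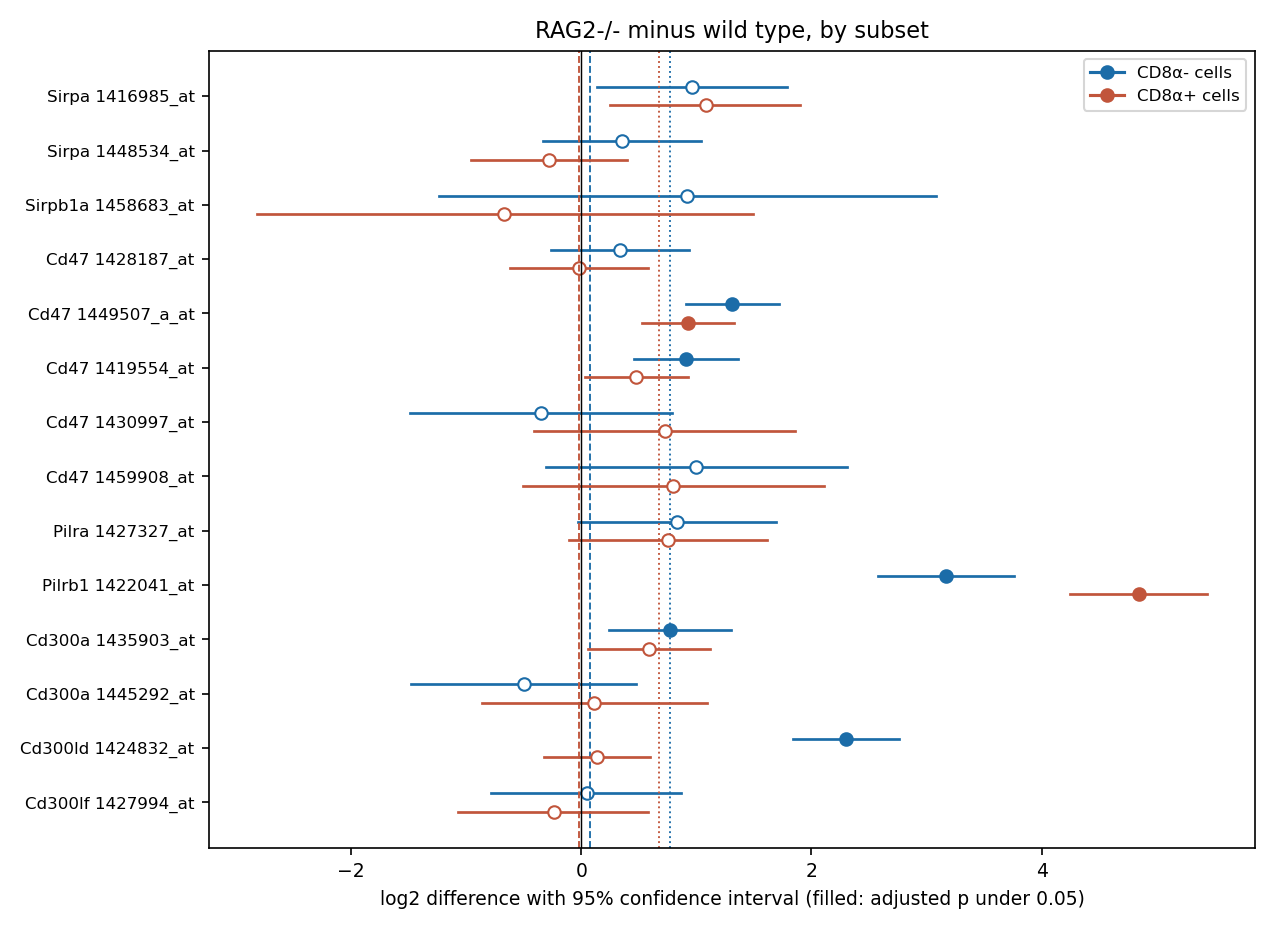
Log2 difference of RAG2-/- minus WT (horizontal axis, bars: 95% confidence interval) for the 14 tested member probe sets in CD8α- (blue) and CD8α+ cells (orange), with filled points for an adjusted p under 0.05. Points are from values as deposited. Dashed lines mark the median of all probe sets with those values and dotted lines that with arrays centred on their medians. Pilrb1 in both subsets and Cd300ld in CD8α- cells lie well to the right of the dashed lines. Centring would move the points too, so they are not to be read against the dotted lines.

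Pilrb1 differed most between the genotypes. From the array values given above, it rose 8.98-fold in RAG2-/- CD8α- cells (log2 3.17, SE 0.25, adjusted p = 0.000738). In CD8α+ cells it was at least 12.6-fold higher (4.85, SE 0.25, adjusted p = 0.00039). With median centring, relative to an all-probe-set shift of 0.77 and 0.68, the differences were 3.83 and 5.52. Without the 2 arrays holding neutrophil transcripts they were 3.11 (adjusted p = 0.0138) and 4.62 (adjusted p = 0.0144), so the rise is present on the other RAG2-/- arrays.

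Pilra, its neighbour, changed far less on its own probe set. The difference was 0.83 in CD8α- cells (95% interval -0.03 to 1.69) and 0.75 in CD8α+ cells (-0.11 to 1.61), neither called. In CD8α- cells the higher value, 7.65, came from the array with neutrophil transcripts, and without both such arrays the difference was 0.33.

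Cd300ld rose in RAG2-/- CD8α- cells and stayed near the floor in CD8α+ cells. The rise was 4.93-fold (log2 2.30, SE 0.19, adjusted p = 0.000862), and 2.49 without the arrays holding neutrophil transcripts (adjusted p = 0.0125). In CD8α+ cells the difference was 0.14 (interval -0.32 to 0.60), between values that are all under 5. Cd300lf, its inhibitory relative, differed by 0.05 (-0.78 to 0.87) in CD8α- and -0.24 (-1.07 to 0.58) in CD8α+ cells.

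Cd300a 1435903_at rose by 0.77 on the log2 scale in RAG2-/- CD8α- cells (SE 0.22, adjusted p = 0.0356), or 1.71-fold. That call was lost when any of the 4 arrays compared was left out, at adjusted p from 0.0509 to 0.171, and with quantile normalization the difference was 0.52 (adjusted p = 0.116). The other Cd300a probe set went the opposite way, at -0.50, without a call. In CD8α+ cells 1435903_at differed by 0.59 and was not called (adjusted p = 0.0797).

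The Cd47 probe sets did not give 1 answer on genotype. 1449507_a_at read 11.67, 11.69, 11.72 and 11.93 on the WT arrays and 12.95, 13.03, 12.74 and 12.77 on the RAG2-/- arrays. It rose by 1.31 in CD8α- cells (SE 0.17, adjusted p = 0.00284) and by 0.93 in CD8α+ cells (SE 0.17, adjusted p = 0.0087). 1419554_at rose by 0.91 in CD8α- cells (adjusted p = 0.0126) and differed by 0.48 in CD8α+ cells without a call (adjusted p = 0.0939). Its call was lost without WT CD8α- replicate 1 (0.86, adjusted p = 0.0706) or replicate 2 (0.95, adjusted p = 0.053). 1428187_at, the brightest, differed by 0.34 (-0.26 to 0.94) and by -0.02 (-0.62 to 0.58), and was not called in either subset.

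Sirpa and Sirpb1a did not pass the test between genotypes. Sirpa 1416985_at was higher on both RAG2-/- arrays of each subset, by 0.96 in CD8α- (95% interval 0.14 to 1.79, adjusted p = 0.0703) and by 1.08 in CD8α+ cells (0.25 to 1.90, adjusted p = 0.0517). Centring the arrays gave 1.62 and 1.75, both called. It was the 1 alternative of 19 that called the CD8α- difference, while 6 of 19 called that in CD8α+ cells, where the adjusted p ran from 0.00548 to 0.248. Sirpa 1448534_at differed by 0.35 and -0.28, so the 2 probe sets disagree in sign in CD8α+ cells. Sirpb1a differed by 0.92 (-1.24 to 3.08) in CD8α- and by -0.67 (-2.82 to 1.49) in CD8α+ cells, intervals that leave room for large changes either way.

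Whether the subset difference itself depended on genotype was tested by the interaction, the genotype difference of the CD8α+ subset minus that of the CD8α- subset. An offset common to all arrays of a genotype drops out of it. Of the members 0 were called by limma, against 0.0295% of all probe sets (5 of 16939). At an unadjusted p under 0.05 there were 2 members and 1126 probe sets in all. Pilrb1 gave 1.68 (SE 0.35, adjusted p = 0.324), but its WT CD8α+ values are under 5, so the WT gap is only bounded. With values under 5 set to 5 the interaction was 0.49 (adjusted p = 0.794). Cd300ld gave -2.16 (SE 0.27, adjusted p = 0.0751). Both of its CD8α+ groups are under 5, so both gaps are bounds. It passed with 1 probe set per gene, the brightest (adjusted p = 0.0419). Over the alternatives run its adjusted p ranged from 0.0394 to 0.426. For Sirpa 1416985_at the interaction was 0.12 (95% interval -1.05 to 1.28), and for Cd300lf -0.29 (-1.45 to 0.88).

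The order of the 4 groups differed among the members. Pilrb1 ran from RAG2-/- CD8α- through RAG2-/- CD8α+ and WT CD8α- to WT CD8α+, with means of 11.04, 8.66, 7.87 and 3.81. The 2 groups in the middle differ in both genotype and subset and were not tested against each other, but their arrays did not overlap. Sirpa 1416985_at and Cd300a 1435903_at ran RAG2-/- CD8α-, WT CD8α-, RAG2-/- CD8α+, WT CD8α+. Cd300ld began the same way, and its 2 CD8α+ groups, all under 5, have no order. In these 3 the genotypes within a subset passed the test only for Cd300a and Cd300ld in CD8α- cells. Sirpb1a and Cd300lf put both CD8α- groups above both CD8α+ groups, and the genotypes within a subset did not pass. Pilra put WT CD8α+ lowest and RAG2-/- CD8α- highest, with means of 6.32 and 6.34 for the 2 groups between, a gap well inside their SDs of 0.23 and 0.25.

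Across the 8 arrays the brightest probe sets of the members rose and fell together to different degrees. Cd300a and Cd300ld correlated at r = 0.974 and Sirpb1a and Cd300lf at 0.980, whereas Pilrb1 and Cd300lf reached 0.583 and Pilra and Cd300lf 0.569. Pilra and Pilrb1 correlated at 0.864, for each of them the highest value with any other member. These are descriptions over 8 arrays in 4 groups, which share the subset and genotype differences. Among 8759 other genes, those most like a member over the same arrays were Ank and Cep63 for Sirpa (r = 0.991 and 0.993), Ms4a6c and Nxpe4 for Sirpb1a (0.997 and 0.996) and Slfn8 and Tgm2 for Cd300lf (0.992 and 0.991). For Pilrb1 they were Rsad2, the interferon-stimulated gene for viperin, and Zfp619 (0.987 each). Ifi47, an interferon-inducible GTPase gene, and Ccrl2 were most like Cd300a (0.997 and 0.996), and Abca9 and Xpc most like Cd300ld (0.996 each). Pilra was closest to Chek2 and Map7d1 (0.989 and 0.980), and Cd47 1428187_at to Pds5a and Slc38a1 (0.982 and 0.977).

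Partners of these receptors were followed through 6 lists with 102 genes, each gene by its brightest probe set. The counts of every list stand against the shares of all probe sets called. These were 12.7% between WT subsets and 16.2% between RAG2-/- subsets, and 35.7% and 33.9% between genotypes in CD8α- and CD8α+ cells. Among adaptors and kinases of the ITAM pathway, 5 of 12 tested genes fell and 1 rose in CD8α+ cells of each genotype. Tyrobp, which encodes DAP12, fell by 0.80 on the log2 scale in WT (adjusted p = 0.0307) and by 0.86 in RAG2-/- mice (adjusted p = 0.0212), and stayed at 13.31 or more on every array. Fcer1g, the other ITAM adaptor, fell too, with log2 differences of -2.83 and -3.62 (adjusted p = 0.00241 and 0.000949). The kinase genes Syk (-1.41 and -1.98) and Fgr (-2.77 and -4.25) and the scaffold gene Lcp2 (-0.99 and -1.60) fell as well. The genes that rose were Src in WT (at least 2.39-fold) and Btk in RAG2-/- mice (0.87). Src reached 5 on the WT CD8α+ arrays alone. The list's median was -0.56 in WT and -0.48 in RAG2-/- mice. Between genotypes 3 of 12 rose and 1 fell in CD8α- cells, and 2 rose and 2 fell in CD8α+ cells. Both counts are near the share of all probe sets called, 35.7% and 33.9%. Plcg2, the gene of phospholipase Cγ2, rose by 1.51 and 1.71 in RAG2-/- CD8α- and CD8α+ cells (adjusted p = 0.00485 and 0.0035), and Lcp2 by 1.57 and 0.95. Fcer1g rose by 1.04 in CD8α- cells, and in CD8α+ cells Fgr fell by 1.39 and Src was at least 2.39-fold lower in RAG2-/- mice.

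On the inhibitory side, 2 of 7 tested effectors fell in CD8α+ cells of each genotype and 0 rose. Of all probe sets, 12.7% were called in WT and 16.2% in RAG2-/- mice. Ptpn6, which encodes SHP-1, read 12.72 and 12.62 in WT CD8α- and 10.86 and 11.65 in WT CD8α+ cells (log2 -1.41, adjusted p = 0.0284), and it fell by 1.54 in RAG2-/- mice (adjusted p = 0.0187). Pag1, an adaptor that anchors the kinase Csk, fell with differences of -1.45 and -1.89. Inpp5d, the gene of the lipid phosphatase SHIP1, did not pass between subsets but rose in RAG2-/- cells, by 1.71 in CD8α- and 1.16 in CD8α+ cells (adjusted p = 0.00335 and 0.0119). Dok1, a docking adaptor gene, rose by 0.95 and 1.27 (adjusted p = 0.0204 and 0.00847). In CD8α- cells it repeated 1 value within each genotype, 7.64 on both WT arrays and 8.59 on both RAG2-/- arrays. In CD8α+ cells it read 7.43 and 7.97 in WT and 9.12 and 8.82 in RAG2-/- mice. The median of the list was 0.06 in WT and 0.03 in RAG2-/- mice.

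**Figure D5:**
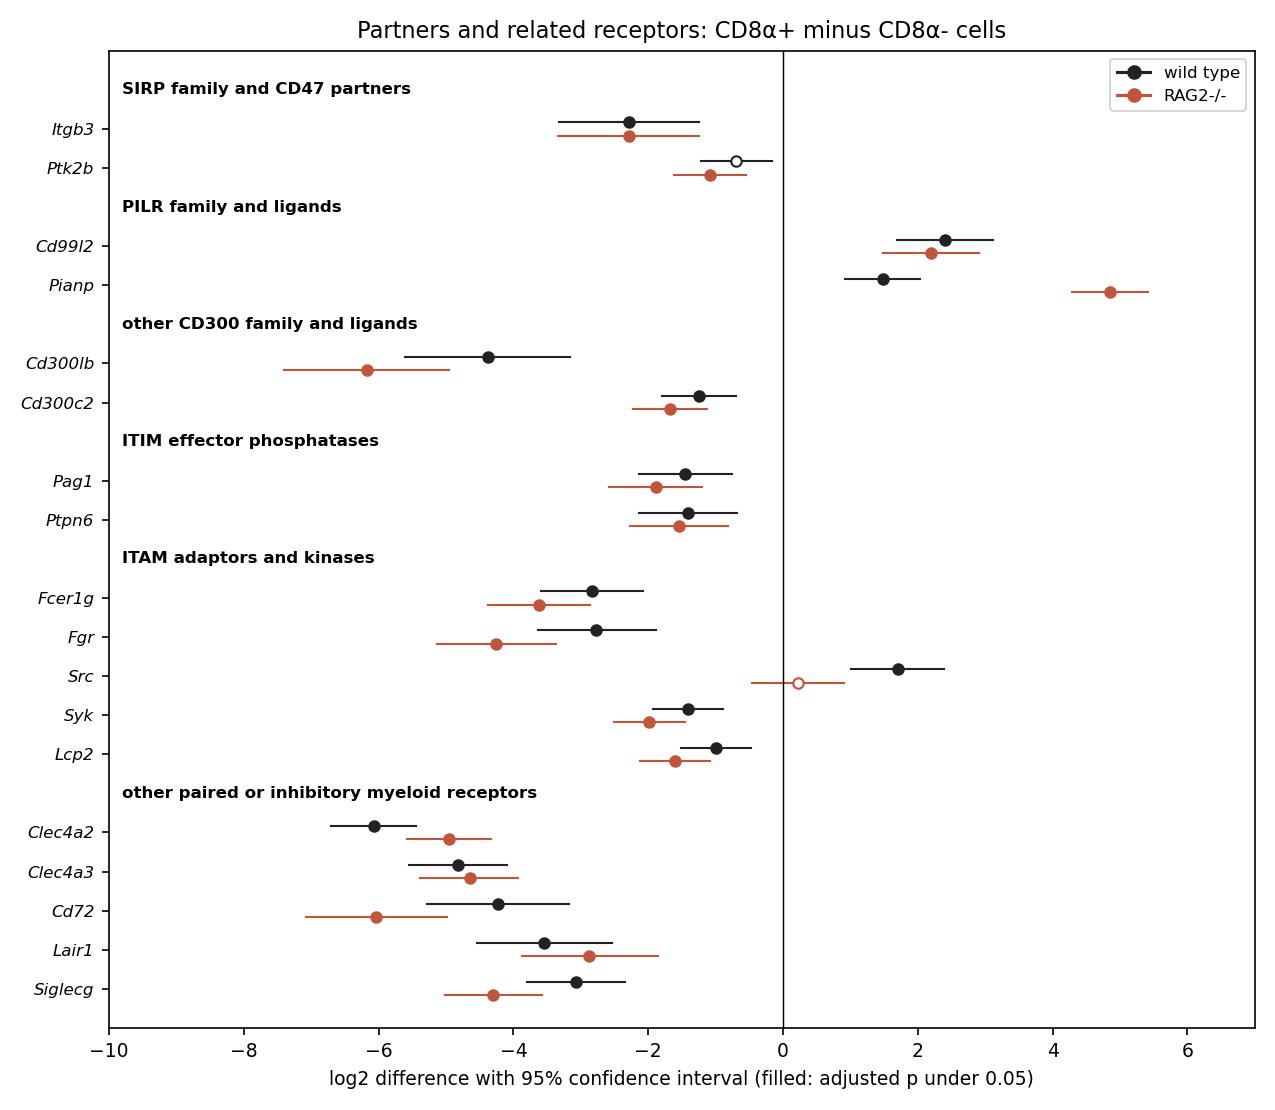
Log2 difference of CD8α+ minus CD8α- cells (horizontal axis, bars: 95% confidence interval) in WT (black) and RAG2-/- mice (orange) for the partner and related receptor genes named by size, grouped by list, with filled points for an adjusted p under 0.05. Most of those shown lie to the left of 0. Cd99l2, Pianp and Src lie to the right, and Src is called in WT alone. Treml4, Cd200 and Btk, also called higher in CD8α+ cells, are not shown.

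Of the list of PILR relatives and ligands, 2 of 3 tested genes were called higher in CD8α+ cells of each genotype, Cd99l2 and Pianp, the latter in WT between values all under 5. Cd99l2, related to the PILR ligand CD99, read 4.28 and 4.13 in WT CD8α- and 6.90 and 6.31 in WT CD8α+ cells, at least 3.04-fold higher (adjusted p = 0.0035), and was at least 2.19-fold higher in RAG2-/- mice (adjusted p = 0.00452). Pianp, which encodes a PILRα-associated neural protein, read 2.24, 2.61, 3.85 and 3.96 on the WT arrays and 3.08 and 3.08 in RAG2-/- CD8α- cells, all under 5. In RAG2-/- CD8α+ cells it read 8.18 and 7.67. It was at least 7.62-fold higher there than in RAG2-/- CD8α- cells (adjusted p = 0.000144) and than in WT CD8α+ cells (adjusted p = 0.000462). It passed the filter through that group alone, and Cd99l2 passed through CD8α+ arrays alone. Cd99 itself differed by -0.18 and -0.07 between subsets, with an SE of 0.97.

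In the list of other CD300 genes and ligands, 2 of 3 tested genes fell in CD8α+ cells, both CD300 receptors. Cd300lb, a DAP12-coupled activating receptor, read 7.04 and 7.32 in WT CD8α-, 3.07 and 2.53 in WT CD8α+, 9.22 and 9.38 in RAG2-/- CD8α- and 3.96 and 2.30 in RAG2-/- CD8α+ cells. It lies in the same cluster as Cd300ld and was, like it, under 5 on all 4 CD8α+ arrays. Cd300lb thus passed the filter through CD8α- arrays alone. It was at least 4.53-fold lower in WT and at least 19.7-fold lower in RAG2-/- CD8α+ cells (adjusted p = 0.00277 and 0.000777). In RAG2-/- CD8α- cells it was 2.12 higher than in WT (adjusted p = 0.0206). Cd300c2, another activating member, fell between subsets (-1.25 and -1.68) and rose by 1.14 in RAG2-/- CD8α- cells. The third gene, Ap3b1, encodes a subunit of the AP-3 sorting complex. It did not pass between subsets and rose by 1.20 in CD8α- and 1.16 in CD8α+ cells of RAG2-/- mice (adjusted p = 0.00858 and 0.0101).

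Among partners of SIRPα and CD47, 1 of 6 tested genes fell in WT and 2 of 6 in RAG2-/- CD8α+ cells. Of all probe sets, 12.7% and 16.2% were called. Itgb3, the β3 integrin subunit that pairs with CD47, fell by 2.28 in WT (adjusted p = 0.0184) and was at least 2.92-fold lower in RAG2-/- mice (adjusted p = 0.0162). The kinase gene Ptk2b fell by 1.08 in RAG2-/- mice (adjusted p = 0.0212). Itgav, the αv subunit, rose in RAG2-/- mice by 1.18 in CD8α- and 1.50 in CD8α+ cells (adjusted p = 0.00776 and 0.0039).

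Other paired or inhibitory receptors of myeloid cells were mostly lower in CD8α+ cells too. In WT 9 of 15 tested genes fell and 1 rose, with a median of -1.90, and in RAG2-/- mice 10 fell and 2 rose, with a median of -2.08. Treml4 rose in both genotypes, by 2.37 in WT and 2.11 in RAG2-/- CD8α+ cells (adjusted p = 0.00142 and 0.00196). Cd200 rose by 2.84 in RAG2-/- CD8α+ cells (adjusted p = 0.00215). Among the genes that fell, Trem3 reached 5 on CD8α- arrays alone. Clec4a2, an inhibitory lectin gene, fell by 4.95 in RAG2-/- mice and was at least 51.6-fold lower in WT CD8α+ cells. In WT and RAG2-/- mice its relative Clec4a3 changed by -4.82 and -4.65, the collagen receptor gene Lair1 by -3.54 and -2.87 and the sialic acid receptor gene Siglecg by -3.07 and -4.30. Cd72, an ITIM receptor better known on B cells, fell by 4.23 in WT and was at least 48.1-fold lower in RAG2-/- CD8α+ cells. Between genotypes 5 of 15 rose and 1 fell in CD8α- cells, and 3 rose and 1 fell in CD8α+ cells. These counts are near the 35.7% and 33.9% of all probe sets called. Clec4a3 rose by 1.73 and 1.90 in RAG2-/- CD8α- and CD8α+ cells, and Clec4n, the gene of the activating lectin Dectin-2, by 1.63 and 2.13 (adjusted p = 0.0282 and 0.0126). Clec4a2 rose by 1.44 in CD8α- cells and was at least 4.52-fold higher in RAG2-/- CD8α+ cells. The ligand gene Cd200 fell by 3.21 in RAG2-/- CD8α- cells and by 1.19 in CD8α+ cells (adjusted p = 0.00141 and 0.0298), while its inhibitory receptor gene Cd200r1 was at least 3.79-fold higher in RAG2-/- CD8α- cells (adjusted p = 0.0034).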

How the data were processed

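Total RNA of sorted cells was labelled with biotin and hybridised to Affymetrix mouse arrays, per the labels. The authors deposited 1 log2 expression value per probe set and array, and that scale is taken from the values and the tool named. Per the submitters' processing notes, GCRMA and affy were used for the WT arrays and only GCRMA for the RAG2-/- arrays. Tool versions, and whether both genotypes were normalized as 1 set, are, for this series, not given in the sources used here. Scanner files were not used. For arrays, their number limits the precision.

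Of 45101 probe sets, 64 controls were left out, and those at 5 or more (log2) on at least 2 arrays were tested. Values were used as deposited, and all 8 arrays entered 1 limma 3.58.1 fit of 4 groups (plain eBayes with 4 degrees of freedom left, 2-sided, in R 4.3.3). The fit gave 5 comparisons, with adjustment by Benjamini-Hochberg over all 16939 probe sets tested. The fit was tested on simulated data. Symbols come from the platform annotation, which names 1 gene for 34945 probe sets, several for 932 and none for 9160. Upstream sequences come from RefSeq (GRCm38.p6).

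The members and gene lists were chosen with earlier results of these data known. Named were all members, list genes called with a log2 difference of at least 1 (at most 4 per list and comparison), the 2 genes most correlated with each member, and Rag2, Cd8a, Cd4 and Itgax as checks. Tyrobp, Btk, Cd99, Treml4, Trem3, Rag1 and the cell type markers were named beyond this, with their values known. Cd4 was at 2.76 to 4.15 in CD8α+ and 7.83 to 11.23 in CD8α- cells, and Itgax at 12.45 to 14.29 on all arrays. Of the 11 marker lists, summed on the linear scale, those not given in the results are CD8α+ dendritic cells (6945 to 23723 in CD8α- and 67373 to 89436 in CD8α+ cells), CD8α- dendritic cells (10468 to 22859 and 722 to 1079), plasmacytoid dendritic cells (1111 to 3277 on all arrays), T cells (50.3 to 388) and erythroid cells (14.9 to 36.2).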

Additional observations from a re-analysis of the deposited data

How the results depend on the processing

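Member results were recomputed under up to 20 alternatives each (fewer where a probe set was filtered out), 18 planned and 2 chosen after seeing the data, the latter being both RAG2-/- arrays with neutrophil transcripts left out and exchanged replicate numbers. Where a result changed, the cause was not tested. The falls of Sirpa 1416985_at, Pilrb1, Cd300a 1435903_at and Cd300lf in CD8α+ cells passed under every alternative run in both genotypes, as did the rises of Pilrb1 in RAG2-/- cells of both subsets, of Cd300ld in RAG2-/- CD8α- cells, and of Cd47 1449507_a_at wherever it had a value. Member counts moved by over 1.5 times only between genotypes and in the interaction. Of 5 in CD8α- cells, 10 were called with median centring, 3 with the brightest probe set per gene, 2 with probe sets averaged per gene, and 3 to 6 with 1 array left out. Of 2 in CD8α+ cells, 8 were called with median centring, 4 with no filter, 4 with trend and robust eBayes, 1 with the mean of probe sets, and 2 to 3 with 1 array left out. The interaction, at 0, gave 1 (Cd300ld) with values under 5 set to 5, with the brightest probe set and with the mean.

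Differences that changed sign were all uncalled in the fit as reported. In CD8α- cells, RAG2-/- minus WT became 0.31 for Cd47 1430997_at and 0.16 for Cd300a 1445292_at with median centring, and -0.19 for Cd300lf with quantile normalization. In CD8α+ cells it became 0.03 with quantile normalization and 0.40 with median centring for Sirpa 1448534_at, 0.01 for Sirpb1a and 0.43 for Cd300lf with median centring, and 0.66 for Cd47 1428187_at with median centring and 0.58 with the mean of probe sets. Without both arrays with neutrophil transcripts, Sirpa 1448534_at gave -0.07 in CD8α- cells, Cd47 1428187_at 0.22 and Cd300a 1445292_at -0.10 in CD8α+ cells, and Cd47 1459908_at 0.21 between RAG2-/- subsets. With 1 array left out the last ran from -1.05 to 0.65. The genotype differences in CD8α- cells then ran from -0.07 to 0.77 for Sirpa 1448534_at, -1.04 to 0.04 for Cd300a 1445292_at and -0.39 to 0.48 for Cd300lf. In CD8α+ cells they ran from -2.14 to 0.81 for Sirpb1a, -0.26 to 0.22 for Cd47 1428187_at, -0.02 to 1.47 for Cd47 1430997_at, -0.05 to 1.65 for Cd47 1459908_at, -0.15 to 0.38 for Cd300a 1445292_at and -0.58 to 0.10 for Cd300lf. A group left with 1 array is assumed to vary like the others.

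Over all probe sets, 2154, 2737, 6045, 5749 and 5 were called in the order WT subsets, RAG2-/- subsets, genotypes in CD8α- and CD8α+ cells, and interaction. With no filter these were 1199, 1487, 28294, 28132 and 41. The compared groups alone gave 720 between RAG2-/- subsets, and leaving out both arrays with neutrophil transcripts 1676. With 1 probe set per gene, 3548 and 3230 were called between genotypes (3178 and 3010 with means). The interaction gave 21 with either of these and with values under 5 set to 5, 12 with quantile normalization and 10 without both arrays with neutrophil transcripts. With 1 array left out the counts were 861 to 2139, 1494 to 2679, 2564 to 5867, 2649 to 6046 and 0 to 4.

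The replicate numbers showed no pairing: differences between the replicates correlated at -0.259 to 0.145 from group to group. With the replicate block, 7, 7, 4 and 2 member probe sets were called in the first 4 comparisons and 0 in the interaction. The block with numbers exchanged in RAG2-/- CD8α+ cells called 9 members and 2614 probe sets between RAG2-/- subsets, against 7 and 2317 with the numbers as labelled.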
